A study of Mus musculus with 6 samples.

Results

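A set of 10 collagen genes that build networks, decorate fibrils or form short-chain lattices were followed in primary mouse chondrocytes labelled as Nf2 knockout or control. The genes were taken by gene symbol from the 55401 genes of the deposited table, and all 10 were found: Col10a1, Col8a1 and Col8a2 (short-chain and network collagens), Col9a1, Col9a2, Col9a3, Col12a1, Col14a1 and Col16a1 (fibril-associated collagens with interrupted triple helices, called FACITs) and Col6a1 (a chain of the beaded filaments of type VI). The 6 libraries of poly(A) RNA came from cartilage cells put into culture, which the series describes as differentiating. In 3 the floxed Nf2 gene, which encodes the membrane-linked tumour suppressor merlin, is labelled as knocked out, and the other 3 are controls that the series lists as Nf2f/f. All 6 library names hold the label D7, with cKO for Nf2 knockout and CTL for control, and the names do not say what D7 counts. The sources used here do not give the agent that deleted Nf2, its promoter, the age of the mice or whether replicates came from separate animals. Each p-value therefore reflects the spread among these 6 libraries alone, which may be technical.

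Collagens are trimers of chains wound into a triple helix. Type X is laid down by hypertrophic chondrocytes, the enlarged cells at the end of the growth plate, and type VIII is its close relative, best known from Descemet's membrane and vessel walls. Type IX is a heterotrimer of 3 different chains, the products of Col9a1, Col9a2 and Col9a3, and sits covalently on the surface of the type II fibrils of cartilage. Types XII and XIV decorate type I fibrils of denser connective tissue, type XVI is a minor FACIT found beside fibrils of several kinds, and type VI surrounds the cell as a pericellular mesh.

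Library totals ran from 50906043 to 63748798 counts, and the first principal component (38.3% of variance) set Nf2-knockout apart from control. Nf2 stood at 87.9, 100.6 and 97.4 CPM in Nf2-knockout replicates 1 to 3 and at 125.6, 132.7 and 122.3 CPM in the controls (CPM are counts scaled to edgeR's effective library size). Its log2 fold change was −0.41 (edgeR adjusted p = 0.0305), a call lost whichever of the 6 libraries was left out (adjusted p from 0.0518 to 0.123), so Nf2 RNA was lower but remained. On the Nf2-knockout libraries the treatment field reads TCF21 overexpression, which their titles do not mention, and Tcf21 had at most 2 counts in a library (0, 2 and 0 with Nf2 knockout, 0 in each control). Chondrocyte markers were detected, 9 of 9, and summed to 1300, 1391 and 665 CPM with Nf2 knockout and to 579, 845 and 811 CPM in controls, so Nf2-knockout replicate 3 was the lowest of its group. The markers Col2a1 and Comp made up most of the sum in each library. Of these 9 markers, 2 were called higher and 0 lower by edgeR, and 4 of 9 had a positive log2 fold change. Fibroblast markers summed to 7799 to 9826 CPM with Nf2 knockout and to 11373 to 14701 CPM in controls, but by gene 2 of 8 fell (Lum and Pdgfra), 0 rose and 3 of 8 had a positive log2 fold change. Pericyte and smooth muscle markers summed to 579 to 899 against 395 to 437 CPM, with 3 of 8 called higher (Acta2, Rgs5 and Cspg4), 0 lower and 5 of 8 positive. Acta2 alone stood at 261.8 to 529.6 CPM with Nf2 knockout and at 131.4 to 153.0 CPM in controls. Of 4 tested mesothelial and epithelial markers (list sums of 98.7 to 213 against 22.1 to 27.0 CPM) 2 were called higher and 4 were positive, and of 7 macrophage markers (45.3 to 95.7 against 127.5 to 321 CPM) 3 were called lower and 0 were positive. The marker Msln made up most of the mesothelial and epithelial sum in each library. The part of these marker differences in the collagen results was not tested, and in such bulk samples fewer cells of a type and less RNA per cell cannot be told apart.

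Of the 10 collagen genes, 1 rose (Col10a1) and 2 fell (Col9a2 and Col14a1) with Nf2 knockout, at an edgeR adjusted p of at most 0.05. Over the 18218 genes tested, 4.11% were called higher and 5.18% lower, 9.29% in all. The 10 genes had a median log2 fold change of −0.09, against −0.01 for all genes tested, and all 10 passed the filter on low counts. For 4 of the 10 (Col8a2 as well as those called) control and Nf2-knockout values did not overlap, as was so for 32.9% of all tested genes. Of all calls, rises were 749 of 1693 in edgeR, 1130 of 1837 on library totals and 960 of 1537 with limma on log2(FPKM + 1), so the balance of rises and falls over all genes depended on the scaling. In edgeR the count of falls was 2 without Nf2-knockout replicate 2 and 0 when any other single library was left out. The count of rises was 2 without Nf2-knockout replicate 3 and 1 when any other was left out. Over all genes these edgeR fits without 1 library called 629 to 1186 genes, against 1693 with all libraries. Rises ran from 309 to 574 (749 with all libraries) and falls from 320 to 706 (944 with all libraries).

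**Figure D1:**
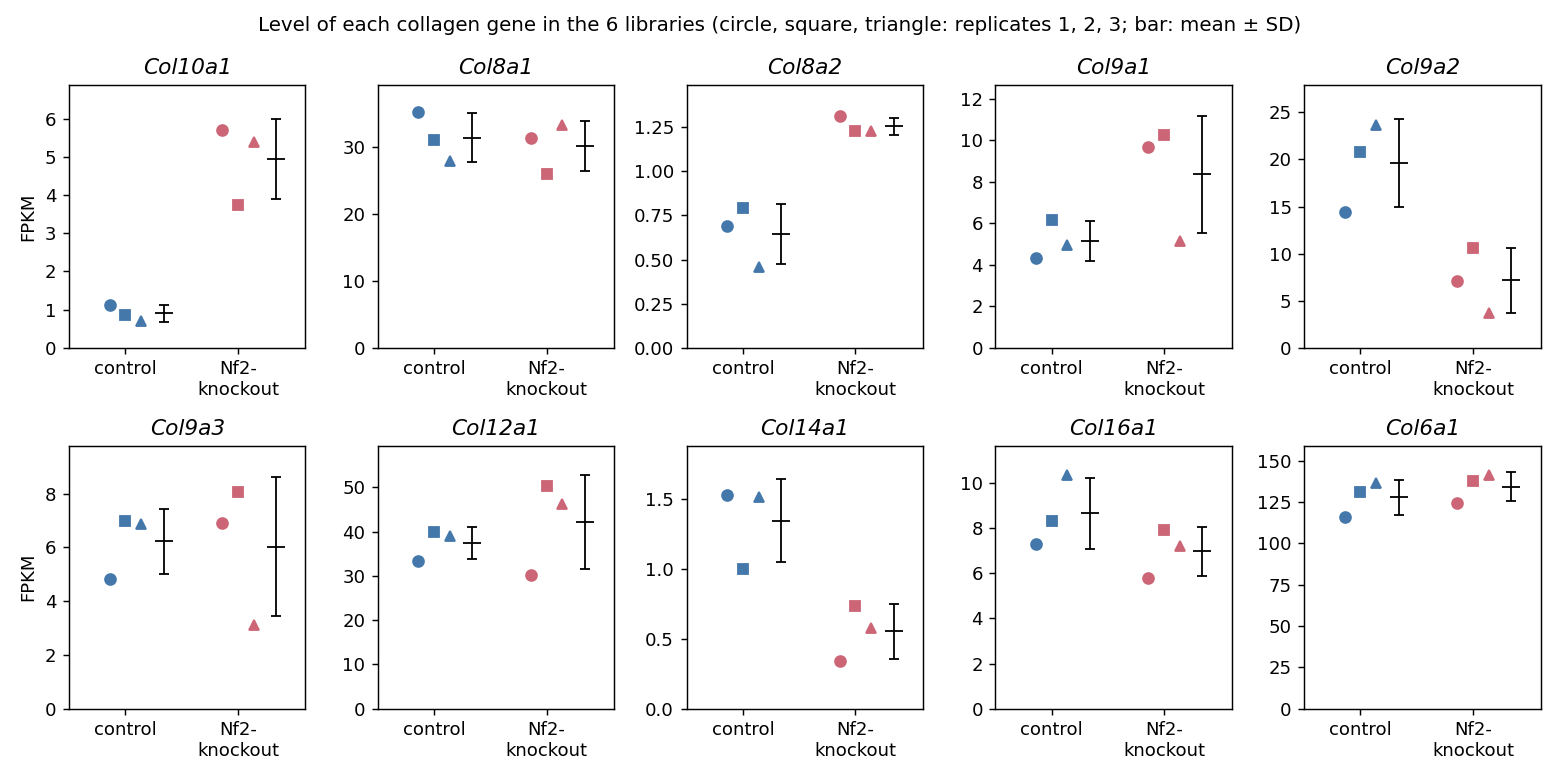
FPKM (deposited fragment numbers scaled to a single exon length per gene and to library depth) of the 10 collagen genes on axes from 0, 1 panel per gene. Blue symbols are control and red symbols Nf2-knockout libraries, with symbol shape giving the replicate number and the black bar the mean ± SD of 3 libraries. The groups stand apart for Col10a1, Col8a2, Col9a2 and Col14a1, and Nf2-knockout replicate 3 (triangle) is the lowest Nf2-knockout library for Col9a1, Col9a2 and Col9a3.

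By level per length, Col6a1 was the most abundant of the 10 in both groups, at a mean of 134.5 FPKM with Nf2 knockout and at 127.9 FPKM in controls. Col12a1 (42.3 and 37.4 FPKM) and Col8a1 (30.1 and 31.3 FPKM) came next and overlapped each other in both groups. In control libraries Col9a2 followed alone at 19.6 FPKM, above Col16a1 (8.66), then Col9a3 (6.22) and Col9a1 (5.15), which overlapped. Col14a1 (1.35), Col10a1 (0.900) and Col8a2 (0.646) were the scarcest, each overlapping its neighbour. In Nf2-knockout libraries Col9a1 (8.36), Col9a2 (7.15), Col16a1 (6.98), Col9a3 (6.03) and Col10a1 (4.95) formed a run in which each overlapped the next, and Col8a2 (1.25) and Col14a1 (0.552) lay below it without overlap. Col9a2 thus left its separate place in the order and Col10a1 moved up to the type IX genes.

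Col10a1 encodes the single chain of type X collagen and is the standard marker of chondrocyte hypertrophy. Its gene (ENSMUSG00000039462, chromosome 10, 34389981 to 34397085, plus strand, GRCm38) stood at 5.69, 3.75 and 5.39 FPKM in Nf2-knockout replicates 1 to 3 and at 1.12, 0.871 and 0.705 FPKM in control replicates 1 to 3. The lowest Nf2-knockout library was above the highest control. The counts were 1005, 800 and 1198 against 239, 170 and 147. The rise was 5.10-fold in edgeR (log2 fold change 2.35, approximate 95% interval 1.78 to 2.92, SE 0.241, adjusted p = 0.00417). It was called whichever library was left out (log2 fold change 2.21 to 2.54) and under all 14 alternative fits, DESeq2, limma on FPKM and the replicate block included. Exons of Nt5dc1, a gene on the opposite strand, overlap those of Col10a1, and the sources used here do not say whether counting used strand. Nt5dc1 stood at 13.7, 13.4 and 13.5 CPM with Nf2 knockout and at 15.8, 16.9 and 14.03 CPM in controls (edgeR adjusted p = 0.357). Some counts of either gene may belong to the other, which was not tested.

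The RefSeq windows around the transcription start (250 bases before to 50 after, GRCm38.p6) are shown for Col10a1, the gene that rose, and for Col9a2 and Col9a1, the type IX chains whose ratio differed between the groups. Capitals mark matches, on either strand, to the TATA box (letters TATAAA), the RUNX core (TGTGGT), the TEAD core (GGAATG), the SOX core (ACAATG), the core of the cAMP response element (TGACGT), the AP-1 site (TGANTCA) and the GC box (GGGCGG). Matches of these motifs do not overlap in the windows shown.
Col10a1, chr10:34389731-34390030, plus strand: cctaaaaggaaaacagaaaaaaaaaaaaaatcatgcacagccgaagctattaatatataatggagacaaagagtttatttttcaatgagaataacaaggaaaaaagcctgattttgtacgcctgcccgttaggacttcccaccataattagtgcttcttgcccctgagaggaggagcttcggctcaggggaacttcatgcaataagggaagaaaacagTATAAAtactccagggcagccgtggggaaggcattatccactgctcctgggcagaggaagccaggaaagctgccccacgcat
Col9a2, chr4:121039316-121039615, plus strand: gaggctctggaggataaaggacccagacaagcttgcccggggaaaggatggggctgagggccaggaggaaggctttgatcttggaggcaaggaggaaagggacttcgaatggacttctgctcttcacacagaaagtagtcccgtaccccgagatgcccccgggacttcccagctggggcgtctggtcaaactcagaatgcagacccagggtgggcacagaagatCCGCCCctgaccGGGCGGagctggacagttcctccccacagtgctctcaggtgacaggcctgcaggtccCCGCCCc
Col9a1, upstream start, chr1:24177360-24177659, plus strand: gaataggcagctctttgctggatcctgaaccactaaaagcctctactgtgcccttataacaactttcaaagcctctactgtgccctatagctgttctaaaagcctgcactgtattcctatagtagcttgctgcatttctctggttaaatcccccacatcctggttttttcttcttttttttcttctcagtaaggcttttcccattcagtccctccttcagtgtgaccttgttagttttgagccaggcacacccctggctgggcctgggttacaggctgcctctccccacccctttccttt
Col9a1, internal start, chr1:24194953-24195252, plus strand: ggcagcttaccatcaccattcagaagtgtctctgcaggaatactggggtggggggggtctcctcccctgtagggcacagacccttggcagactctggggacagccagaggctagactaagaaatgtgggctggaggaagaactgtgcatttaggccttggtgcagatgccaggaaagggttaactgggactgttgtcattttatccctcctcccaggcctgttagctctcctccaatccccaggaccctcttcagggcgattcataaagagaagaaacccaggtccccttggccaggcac
The Col10a1 window holds 1 motif match, a TATA box that begins 32 bases before the start. A TATAAA was present in 13.6% of the 32851 windows of all genes. Its GC content was 44.3%, and 20.1% of all windows had less. The Col9a2 window holds 3 GC boxes, of which 35.7% of all windows had at least 1, with 10 CpG dinucleotides and a GC content of 61.7%. Its RefSeq start lies downstream of the gene start in the deposited table. Neither window of Col9a1 holds any of the 7 motifs, and they have 0 and 1 CpG, against a median of 7 over all windows. RUNX cores (16.8% of all windows), TEAD cores (14.7%), SOX cores (12.6%), cAMP element cores (7.51%) and AP-1 sites (7.81%) were absent from all 4 windows shown. Among the 8 windows matched to 7 of the 10 genes, the other motif matches were a RUNX core and 4 GC boxes in that of Col8a1, 4 GC boxes in that of Col8a2, 2 in that of Col16a1 and an AP-1 site in that of Col6a1. A match describes letters in the window and does not show that a factor binds.

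Of the 3 genes of type IX collagen Col9a2 fell, and neither Col9a1 nor Col9a3 passed the test. Col9a2 (ENSMUSG00000028626, chromosome 4, 121039385 to 121055322, plus strand) stood at 7.13, 10.6 and 3.68 FPKM in Nf2-knockout replicates 1 to 3 and at 14.4, 20.8 and 23.7 FPKM in the controls. All 3 Nf2-knockout libraries lay below all 3 controls. The fall was 2.94-fold (log2 fold change −1.55, approximate 95% interval −2.45 to −0.66, SE 0.380, edgeR adjusted p = 0.0482). The call was near the threshold. With Nf2-knockout replicate 2 left out it held (adjusted p = 0.0279). It was lost when Nf2-knockout replicate 1 (0.147) or 3 (0.0679) was left out, and likewise for control replicate 1 (0.0681), 2 (0.130) or 3 (0.118). The direction was the same in all 14 alternative fits, with log2 fold changes from −1.96 to −1.22.

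Col9a1 (ENSMUSG00000026147, chromosome 1, 24177610 to 24252684, plus strand) has an upstream start, which gives the long chain with a large globular head, and an internal start, which gives the short chain, and the gene-level counts hold both. It stood at 9.68, 10.3 and 5.13 FPKM with Nf2 knockout and at 4.33, 6.18 and 4.93 FPKM in controls. Nf2-knockout replicates 1 and 2 were above all controls and replicate 3 lay among them. The log2 fold change was 0.60 (interval −0.05 to 1.24, edgeR adjusted p = 0.232). Without Nf2-knockout replicate 3 it was 0.87 with an adjusted p = 0.0457. Col9a3 (ENSMUSG00000027570, chromosome 2, 180597790 to 180622189, plus strand) stood at 6.89, 8.08 and 3.12 FPKM against 4.82, 6.99 and 6.87 FPKM, with a log2 fold change of −0.15 (interval −0.95 to 0.66, edgeR adjusted p = 0.841). Here too the groups overlapped and replicate 3 was the low library, and without it the sign turned (0.18). The exons of Col9a3 overlap those of Tcfl5 on the opposite strand, which rose from 7.76 to 9.43 CPM in control to 13.4 to 18.2 CPM in Nf2-knockout libraries (edgeR adjusted p = 0.0189), so some counts of either gene may belong to the other.

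The type IX chains were next set against each other within each library, which takes out a level that the 3 genes share there. The FPKM ratio of Col9a2 to Col9a1 was 3.33, 3.36 and 4.80 in control replicates 1 to 3 and 0.736, 1.04 and 0.717 in Nf2-knockout replicates 1 to 3. On this scale Col9a2 therefore stood several times above Col9a1 in control libraries, and about level with it or below in Nf2-knockout libraries. FPKM uses a single length per gene, and Col9a1 has a long and a short form. The ratios therefore compare the groups and do not give numbers of transcripts. The geometric mean ratio was 3.77 in controls and 0.818 with Nf2 knockout, a 4.61-fold difference (−2.20 on the log2 scale). The SD of the log2 ratio was 0.301 in controls and 0.297 with Nf2 knockout. Col9a2 to Col9a3 went from 3.00, 2.97 and 3.45 to 1.03, 1.32 and 1.18 (2.67-fold lower, −1.42 on the log2 scale). Col9a3 to Col9a1 went from 1.11, 1.13 and 1.39 to 0.712, 0.787 and 0.607 (1.73-fold lower, −0.79). Counts that may belong to Tcfl5, which rose, could enter both ratios that hold Col9a3, and their part was not tested. None of these 3 ratios overlapped between groups. They are not separate results, since each follows from the others. All but Col9a3 to Col9a1 hold Col9a2, whose own values did not overlap. How often ratios of other gene pairs do not overlap was not computed. Each had an exact two-sided permutation p = 0.1, the smallest that 3 against 3 libraries allow, and an adjusted p = 0.15 over the 9 ratios computed, so the design could not reach 0.05. The differences kept their sign and moved little without any 1 library (−2.38 to −2.03, −1.50 to −1.33 and −0.87 to −0.68).

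**Figure D2:**
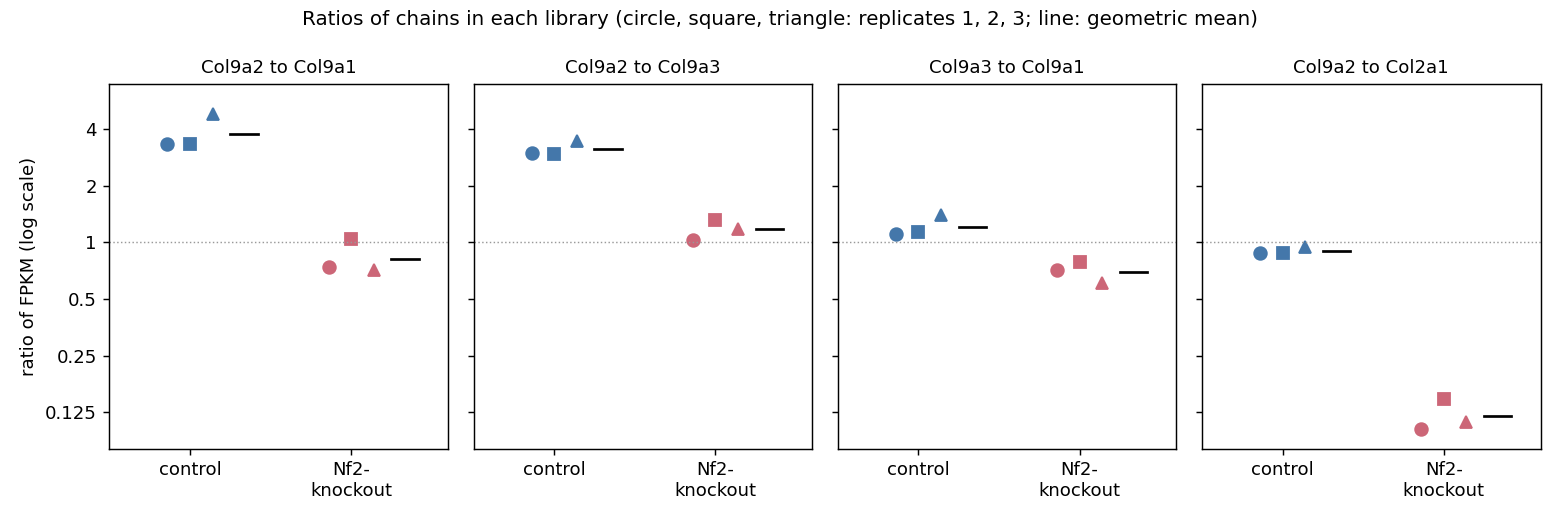
Ratio of FPKM between 2 collagen genes in each library, on a shared log axis, for 3 pairs of type IX chains and for Col9a2 over the type II gene Col2a1. Blue symbols are control and red Nf2-knockout libraries, the shape gives the replicate, the line is the geometric mean and the dotted line marks equal FPKM. Control values of Col9a2 to Col9a1 lie between 3.33 and 4.80 and Nf2-knockout values between 0.717 and 1.04.

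Type IX collagen is mounted on type II fibrils, so the chains were also set against Col2a1, the gene of that fibril's chain. Col2a1 stood at 701, 719 and 324 CPM with Nf2 knockout and at 174, 250 and 269 CPM in controls, again with Nf2-knockout replicate 3 lowest in its group. It rose with a log2 fold change of 1.33 (edgeR adjusted p = 0.0446), a call that held with Nf2-knockout replicate 3 left out (0.0148). It was lost when Nf2-knockout replicate 1 (0.129) or 2 (0.105) was left out, or control replicate 1 (0.119), 2 (0.120) or 3 (0.0841). The FPKM ratio of Col9a2 to Col2a1 was 0.881, 0.882 and 0.942 in controls and 0.102, 0.148 and 0.111 with Nf2 knockout, 7.60-fold lower (−2.93 on the log2 scale). The 3 control values lay close together and far from the 3 Nf2-knockout values. Col9a1 to Col2a1 was 0.264, 0.263 and 0.196 in controls and 0.138, 0.142 and 0.155 with Nf2 knockout (1.65-fold lower, −0.72), also without overlap. Each gave an exact two-sided permutation p = 0.1 (adjusted p = 0.15). For Col10a1 to Col2a1 the ratio was 0.0811, 0.0520 and 0.163 with Nf2 knockout and 0.0686, 0.0370 and 0.0281 in controls. These overlapped (exact permutation p = 0.2), and relative to Col2a1 the higher level of Col10a1 was 2.13-fold.

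Type VIII collagen has 2 genes, which stood at very different levels. Col8a1 (ENSMUSG00000068196, chromosome 16, 57624258 to 57754737, minus strand), the abundant chain, stood at 31.3, 25.9 and 33.2 FPKM with Nf2 knockout and at 35.2, 31.0 and 27.9 FPKM in controls. The groups overlapped, with a log2 fold change of −0.16 (interval −0.45 to 0.13, edgeR adjusted p = 0.489). Col8a2 (ENSMUSG00000056174, chromosome 4, 126286793 to 126314330, plus strand), the scarce chain, stood at 1.31, 1.23 and 1.23 FPKM against 0.692, 0.789 and 0.457 FPKM. Every Nf2-knockout value was above every control value and the Nf2-knockout libraries were nearly equal. Its log2 fold change was 0.85 (interval 0.29 to 1.42, SE 0.239), which did not pass in edgeR (adjusted p = 0.0727, and 0.0904 to 0.177 without 1 library) and passed in DESeq2 (0.0172) and in limma on log2(FPKM + 1) (0.0458). The ratio of Col8a2 to Col8a1 was 0.0419, 0.0473 and 0.0369 with Nf2 knockout and 0.0197, 0.0254 and 0.0164 in controls, 2.07-fold higher without overlap (exact two-sided permutation p = 0.1, adjusted p = 0.15). Endothelial markers, of a cell type known for type VIII collagen, summed to 5.02 to 9.24 CPM with Nf2 knockout and to 2.30 to 5.16 CPM in controls. Of the 6 tested, 1 rose and 0 fell, and 3 had a positive log2 fold change. The rise was that of Kdr, a receptor gene of endothelial cells, which stood at 4.50, 3.72 and 5.25 CPM against 1.84, 1.43 and 1.98 CPM (1.36 on the log2 scale, edgeR adjusted p = 0.0196). Kdr was the largest part of the endothelial sum in each library. Pecam1 (−0.15), Emcn (−0.63) and Vwf (−0.68) had negative log2 fold changes and were not called. Cdh5 was not tested and had 0 counts in each Nf2-knockout library and 16, 0 and 4 in the controls. The part of these markers in the Col8a2 values was not tested.

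Of the FACIT genes of type I fibrils, Col14a1 fell and Col12a1 did not pass the test. Col14a1 (ENSMUSG00000022371, chromosome 15, 55307750 to 55520803, plus strand), which encodes the chain of type XIV collagen, stood at 0.343, 0.737 and 0.577 FPKM with Nf2 knockout and at 1.53, 1.00 and 1.51 FPKM in controls, from 138, 354 and 288 against 728, 437 and 703 counts. The highest Nf2-knockout library was below the lowest control. The fall was 2.60-fold (log2 fold change −1.38, interval −2.11 to −0.65, SE 0.310, edgeR adjusted p = 0.0373). Leaving out Nf2-knockout replicate 2 kept the call (adjusted p = 0.0378). Leaving out Nf2-knockout replicate 1 (0.0865) or 3 (0.115) ended it, as did leaving out control replicate 1 (0.101), 2 (0.0583) or 3 (0.0945). Of the 8 fibroblast markers, 2 fell and 0 rose, and their part in the Col14a1 result was not tested.

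Col12a1 (ENSMUSG00000032332, chromosome 9, 79598991 to 79718720, minus strand), the gene of type XII collagen, was far more abundant. It stood at 30.2, 50.2 and 46.3 FPKM with Nf2 knockout and at 33.3, 39.9 and 39.0 FPKM in controls. Nf2-knockout replicate 1 was the lowest library of all and replicates 2 and 3 the highest. The log2 fold change was 0.07 (interval −0.37 to 0.52, edgeR adjusted p = 0.856). Col16a1 (ENSMUSG00000040690, chromosome 4, 130047840 to 130099283, plus strand) stood at 5.81, 7.92 and 7.20 FPKM against 7.28, 8.33 and 10.4 FPKM. The groups overlapped through Nf2-knockout replicate 2 and control replicate 1, and the log2 fold change of −0.41 (interval −0.81 to −0.02) did not pass (edgeR adjusted p = 0.185, unadjusted p = 0.0428).

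Col6a1 (ENSMUSG00000001119, chromosome 10, 76708792 to 76726168, minus strand) had the smallest log2 fold change of the 10. It stood at 124.4, 137.7 and 141.3 FPKM in Nf2-knockout and 116.0, 131.2 and 136.4 FPKM in controls. The log2 fold change was −0.03 (interval −0.26 to 0.20, edgeR adjusted p = 0.892). The sign turned with the scaling: 0.074 on deposited FPKM and 0.069 on library totals. Its partner chains, which assemble with it into the type VI trimer, also did not pass: Col6a2 had a log2 fold change of −0.09 (adjusted p = 0.583), with the sign turned to 0.010 on FPKM and 0.007 on library totals, and Col6a3 one of 0.22 (adjusted p = 0.219). The ratio of Col6a2 to Col6a1 was 0.312, 0.310 and 0.308 with Nf2 knockout and 0.343, 0.306 and 0.325 in controls (exact permutation p = 0.4), and Col6a3 to Col6a1 was 0.574, 0.516 and 0.604 against 0.551, 0.455 and 0.428 (p = 0.2). Both type VI ratios overlapped between groups, and the type IX and VIII ratios given above did not, a contrast that was not tested.

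**Figure D3:**
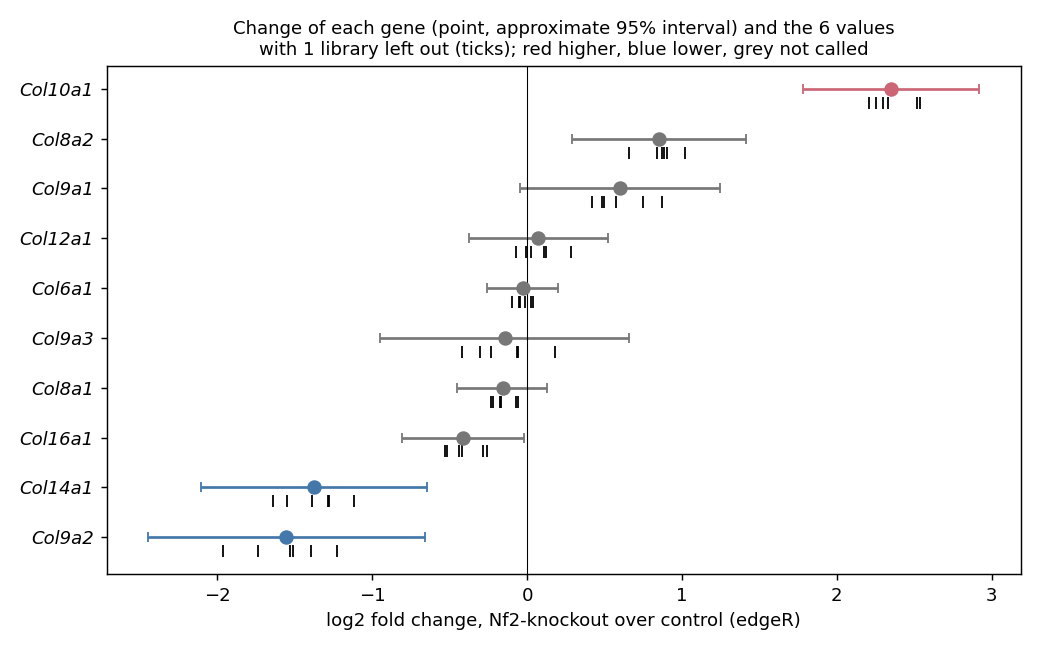
Log2 fold change of each collagen gene, Nf2-knockout over control, from edgeR (point) with its approximate 95% interval (bar), and the values of 6 fits that each leave out 1 library (ticks). Red marks the gene called higher, blue those called lower and grey those not called. Col10a1 stands at 2.35, Col14a1 at −1.38 and Col9a2 at −1.55, and the ticks of these 3 stay on their side of 0.

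By likeness of pattern, measured as the root mean square difference of centred log2 CPM over the 6 libraries, Col6a1 and Col12a1 were closest (0.182). Col8a1 (0.219) and Col16a1 (0.228) were also nearest to Col6a1. Col9a1 and Col8a2 were nearest to each other (0.420), and Col9a3 to Col9a1 (0.421). Col9a2 was nearest to Col14a1 (0.609), the other gene that fell, and not to another type IX chain. Col10a1 had no near neighbour, with Col8a2 the least distant (0.771). The measure is not scaled to the range of each gene. Genes whose fold changes were of like size and sign therefore tend to lie near each other, so it partly repeats the fold changes.

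Among the other collagens, no gene of the 9 tested from the remaining FACIT, beaded-filament and anchoring types was called by edgeR (2 at an unadjusted p under 0.05, as were 24.8% of all genes tested, 1 called higher and 1 lower by DESeq2, and 1 lower by edgeR without Nf2-knockout replicate 1). Their median log2 fold change was −0.21. Of 11 fibrillar collagens, 1 rose (Col2a1) and 1 fell, Col27a1, a fibrillar collagen of cartilage, from 21.4 to 25.4 CPM in control to 8.48 to 12.3 CPM in Nf2-knockout libraries (−1.19, edgeR adjusted p = 0.00979). Their median was −0.02, and 0 rose in any edgeR fit without 1 library other than Nf2-knockout replicate 3. Of 11 basement membrane and transmembrane collagens, 3 rose and 0 fell (median 0.46), with 2 rises when Nf2-knockout replicate 3 or control replicate 2 was left out. Col4a4 and Col4a3, chains of type IV networks, rose by 2.87 and 2.12 on the log2 scale (edgeR adjusted p = 0.00304 and 0.00828), and both calls held without any 1 library. Col4a5 rose by 0.54 (adjusted p = 0.0153), a call lost when Nf2-knockout replicate 3 (0.0653) or control replicate 2 (0.0632) was left out.

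**Figure D4:**
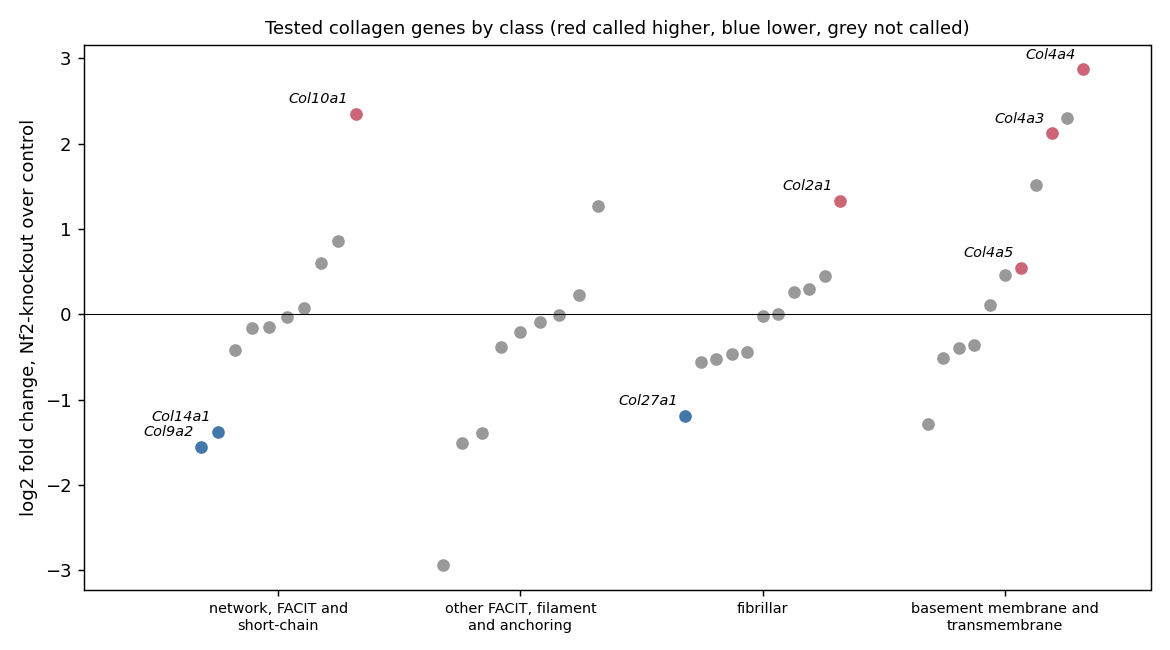
Log2 fold change, Nf2-knockout over control, of every tested collagen gene, 1 point per gene, in 4 classes along the horizontal axis and sorted within each. Red points were called higher, blue lower and grey not called. Col10a1 is the only red point of its class at 2.35, beside Col2a1 at 1.33 among the fibrillar genes and Col4a4 at 2.87 among the basement membrane genes.

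Genes that act on these collagens moved in both directions. Of 12 collagen receptors tested, 4 rose and 4 fell, 66.7% of the list against 9.29% of all genes. The list was chosen with earlier results of these data known, so the difference in share is not a test. Cspg4, a proteoglycan that binds type VI collagen, rose from 32.8 to 40.1 CPM in control to 68.0 to 85.6 CPM in Nf2-knockout libraries (2.12-fold, edgeR adjusted p = 0.00541), and it also stands among the pericyte markers. The collagen receptor kinase gene Ddr1 rose by 0.67 (adjusted p = 0.00588), and Antxr1, an anthrax toxin receptor that binds type VI collagen, fell from 646 to 806 CPM to 272 to 369 CPM (−1.15, adjusted p = 0.00683). These 3 calls held without any 1 library. Antxr2, its relative, fell by 0.91 (adjusted p = 0.0141, and 0.0666 without Nf2-knockout replicate 1). With Nf2-knockout replicate 1, 2 or 3 left out, 2, 4 or 2 receptor genes rose and 1, 5 or 2 fell. With control replicate 1, 2 or 3 left out, 2, 2 or 3 rose and 3, 2 or 2 fell.

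Of 25 tested genes of collagen processing, 4 rose and 1 fell (median 0.08). The crosslinking oxidase gene Loxl4 rose by 1.47 on the log2 scale (edgeR adjusted p = 0.00431) and Pcolce2, an enhancer of procollagen cleavage, by 1.26 (0.00317), whereas the lysyl hydroxylase gene Plod1 fell by 0.70 (0.0107). Of 14 matrix partners, 2 rose and 2 fell (median 0.11). Thbs1, the gene of thrombospondin, rose by 1.49 (adjusted p = 0.00304), and Matn2, of a matrilin that joins matrix filaments, fell by 1.94 (0.00795). These processing and partner genes were called without any 1 library, as was the prolyl hydroxylase gene P4ha2, which rose by 0.67 (0.0117). Tnxb, the gene of a tenascin that bridges fibrils, rose by 0.72 (0.0189), which did not pass when Nf2-knockout replicate 2 (0.0581) or 3 (0.0672) or control replicate 2 (0.0709) or 3 (0.0563) was left out. The proteoglycan gene Lum fell by 1.78 (0.0264), which did not pass when Nf2-knockout replicate 1 (0.104) or control replicate 1 (0.0592), 2 (0.0793) or 3 (0.0710) was left out. With Nf2-knockout replicate 1, 2 or 3 left out, 2, 1 or 1 partner genes rose and 1, 3 or 2 fell. With control replicate 1, 2 or 3 left out, 2, 1 or 1 rose and 1 fell each time.

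Of 17 other genes of the hypertrophic zone that were tested, 1 rose and 2 fell (median −0.14), and 7 of 17 had a positive log2 fold change. With Nf2-knockout replicate 1, 2 or 3 left out, edgeR called 1 rise each time and 0, 2 or 1 falls. For control replicate 1, 2 or 3 it called 1, 1 or 2 rises and 2, 1 or 1 falls. Slc20a2, a phosphate transporter gene, was the rise (0.53, edgeR adjusted p = 0.0107, called without any 1 library). Mmp13, the collagenase of hypertrophic cartilage, fell from 8392 to 11848 CPM in control to 796 to 2890 CPM in Nf2-knockout libraries (−2.53, adjusted p = 0.0169), a call lost when Nf2-knockout replicate 1 (0.0742) or control replicate 2 (0.0571) was left out. Vegfa, an angiogenic factor gene, fell by 0.53 (0.0489), which passed in 1 of the 6 fits without 1 library (without Nf2-knockout replicate 2, 0.0359) and reached 0.144 without Nf2-knockout replicate 1. Pth1r, the parathyroid hormone receptor gene, stood at 4.33 to 7.29 CPM against 8.60 to 19.8 CPM (−1.28, adjusted p = 0.0581, and 0.0330 without control replicate 1). Runx2, a regulator of Col10a1, stood at 12.9 to 13.97 CPM against 11.8 to 24.9 CPM (−0.60, adjusted p = 0.229, and 0.0243 without control replicate 2). The other uncalled genes of this list lay on both sides of 0, as with Phospho1 (0.67, edgeR adjusted p = 0.0974) and Alpl (−1.19, 0.102). Sox9, the regulator of cartilage collagens, stood at 14.4 to 22.2 CPM against 19.95 to 27.6 CPM (−0.37, adjusted p = 0.298). Of 10 tested cartilage regulators, 0 rose and 2 fell (median −0.26). These were the transcription factor genes Zfp521 (−0.57, edgeR adjusted p = 0.0264) and Trps1 (−0.56, 0.0427). Leaving out Nf2-knockout replicate 1, 2 or 3 gave 0, 1 or 0 falls, and leaving out control replicate 1, 2 or 3 gave 0, 0 or 2.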

How the data were processed

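The 6 libraries were grouped by their titles into 3 Nf2-knockout and 3 control. The authors deposited 1 table with whole-number counts and FPKM values per gene and library. The deposited counts are unnormalised, and FPKM is 0.0001 wherever the count is 0, which was read as 0 here. Per the submitters' processing notes, the tools were edgeR, StringTie 1.3.4d, HISAT2 2.0.4 and cutadapt 1.9, with no roles stated. The sources used here do not give the build, the strandedness or how counts were made. StringTie is named, so counts may be rounded coverage estimates. Gene positions equal those of GENCODE M21 (GRCm38) for 86.9% of 55141 genes, and for 9 of the 10 collagen genes. The exception is Col12a1.

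edgeR 4.0.16 in R 4.3.3 (filterByExpr, TMM, glmQLFit, glmQLFTest on group, two-sided, Benjamini-Hochberg over 18218 genes, threshold 0.05) gave the fold changes (prior count 0.125). SEs are the size of the log2 fold change divided by the root of F, and intervals use that SE, so both are approximate. Chain ratios used deposited FPKM and the exact permutation test in scipy 1.17.1. On counts simulated from these data with known changes, edgeR recovered 2.67% of 75 genes changed 1.5-fold, 26.8% of 56 changed 2-fold and 67.2% of 61 changed 4-fold among 17534 tested. The changed genes were a smaller share of those tested than the 9.29% called in the data. Recovery after adjustment depends on that share, so these percentages need not hold for the data. Alternatives were DESeq2 1.42.0, its size factors, no count filter, the replicate block, limma 3.58.1 on log2(FPKM + 1) and log2(FPKM + 0.1) for genes with a mean FPKM of 0.1 or more, and each library left out. Library totals without scaling and median-of-ratios FPKM were added after seeing the data.

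The 10 genes and the 8 other gene lists were chosen with earlier results of these data known. All 10 are named, with Nf2, Col2a1, Col6a2, Col6a3, Pth1r, Mmp13, Runx2 and Sox9 whatever their values, and of each other list up to 4 called genes with the smallest p. Tcf21, Nt5dc1, Tcfl5, Phospho1, Alpl, the named marker genes and the motifs were added after seeing the data. Promoter windows are RefSeq's (GRCm38.p6) and matched 7 of the 10 genes. Of 2 list genes, Wisp3 and Ctage5, the symbol was not found in the table.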

Additional observations from a re-analysis of the deposited data

How the results depend on the processing

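Col10a1 kept its direction and its call in all 14 alternatives (log2 fold change 1.58 to 2.54). The number of the 10 genes called higher was 1, and became 2 with DESeq2 and with limma on log2(FPKM + 1), where Col8a2 joined, and ran from 1 to 2 without 1 library. The number called lower was 2. It became 1 with median-of-ratios size factors, with no filter on low counts and on library totals, and 0 with limma on log2(FPKM + 1), on log2(FPKM + 0.1) and on median-of-ratios FPKM, and ran from 0 to 2 without 1 library. Col9a2 and Col14a1 were lower in all 14 alternatives, with a call in 2 and 5 of them. Adding the replicate number as a replicate block gave 1 rise and 0 falls among the 10 genes, and 923 called genes against 1693. No label says what libraries of the same number share. Deviations of same-numbered libraries from their group means had correlations of −0.09, 0.03 and 0.02. Not every library correlated best with its own number. With 3 libraries per group such deviations cannot show whether the numbers pair the libraries. For ratios the replicate block leaves each difference as it was by construction (−2.20 for Col9a2 to Col9a1) and changes the p alone. The exact sign-flip p was 0.25 for Col9a2 to Col9a1, the smallest that 3 pairs allow.

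Signs that turned were all of genes not called. Col9a3 ran from −0.42 to 0.18, Col12a1 from −0.069 to 0.28 and Col6a1 from −0.10 to 0.04 without 1 library. Col6a1 stood at 0.074 with limma on log2(FPKM + 1) and on log2(FPKM + 0.1) and at 0.069 on library totals, and Col6a2 at 0.010, 0.010 and 0.007. The fit on library totals differed from the main fit in scaling alone. It left out edgeR's factors, which were 1.03 to 1.05 with Nf2 knockout and 0.958 to 0.972 in controls. For the other turns of sign the cause was not tested. Scaling shifted the median of all tested genes by less than 0.1 on the log2 scale, from −0.01 in edgeR to 0.09 on library totals and on log2(FPKM + 0.1). All 9 chain ratios kept their sign on CPM, with 0.1 added to each FPKM and without each library in turn. Of the 10 genes, Col8a2, Col14a1 and Col10a1 had the fewest counts in their lowest libraries (136, 138 and 147).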
